A study of Caenorhabditis elegans with 12 samples.

Results

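*bli-1*, *bli-2* and *bli-6* encode the collagens of the struts of the adult *C. elegans* cuticle. They were taken by gene name from the deposited table, in which they are 3 of 46926 features, and each name matched 1 feature. RNA was sequenced from whole N2 worms, the wild-type laboratory strain, with 6 libraries for a diet of Δ*lpp* mutant *E. coli* and 6 for a diet of BW25113, the wild-type bacterium. Δ*lpp* lacks the gene for Lpp, an abundant lipoprotein that ties the bacterial outer membrane to the cell wall. No worm gene was altered, so the diets differ in the bacterial strain alone as far as the labels say. The sources used here give neither the age or stage of the worms at RNA collection nor whether the libraries came from separate cultures. The p-values therefore measure the spread between these libraries, which may be technical.

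The adult cuticle is a collagen coat secreted by the epidermis at the last molt, with a cortical and a basal layer around a fluid-filled medial layer. Columns called struts cross the medial layer and hold the outer and inner layers together, and worms without working struts form fluid-filled blisters, which gave the *bli* genes their name. BLI-1 and BLI-2 are needed to build the struts, and BLI-6 is a further collagen found in them.

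All 3 strut collagens were lower in worms fed Δ*lpp*, by a factor of about 128 for *bli-1*, 95.9 for *bli-2* and 85.2 for *bli-6* in mean CPM, that is counts relative to the library total, scaled between libraries by the TMM method. No library of one diet overlapped the other for any of the 3, which also held for 41.5% of the 15266 tested genes in either direction and for 23.7% in the same direction. They had counts in all 12 libraries. Where the low Δ*lpp* counts came from was not tested.

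The 3 genes lie apart in the genome (WBcel235, Ensembl annotation). *bli-1* (WBGene00000251) is on the plus strand of chromosome II at 10708960 to 10712156, with 5 exons, of which exon 3 alone has 2123 bases. Its single annotated transcript has a coding length of 2844 bases, or 948 codons. *bli-2* (WBGene00000252) is on the minus strand of the same chromosome at 5651394 to 5652434, 5056525 bases away, with 2 exons and 311 codons. *bli-6* (WBGene00000256) is on the plus strand of chromosome IV at 6377065 to 6378168, with 2 exons and 297 codons. The coding length of *bli-1* is thus greater than that of the other two together, while *bli-2* and *bli-6* are short collagens of similar size.

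**Figure D1:**
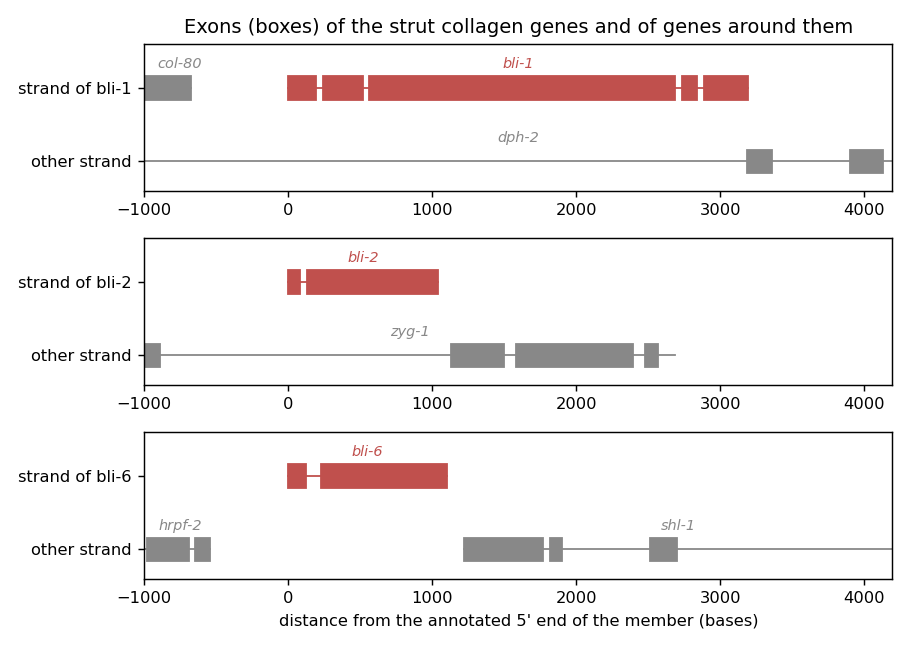
Exons (boxes) and introns (lines) of *bli-1*, *bli-2*, *bli-6* and genes around them, by distance in bases from the annotated 5′ end of each strut collagen gene, with its own strand above and the other strand below; genes that reach past the window are cut at its edge. *bli-1* and *bli-2* lie within the span of a gene on the other strand, and *bli-6* overlaps no gene.

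*bli-1* lies within the span of *dph-2* on the opposite strand and shares 7 exon bases with it. *bli-2* lies within the span of *zyg-1* on the opposite strand and shares 0 exon bases. Whether the counting used strand is not given in the sources used here, so that reads over shared bases cannot be told apart. The host genes did not pass the test. *dph-2*, a gene of diphthamide synthesis, was at 21.5 ± 1.91 CPM (SD, n = 6) with Δ*lpp* and 21.6 ± 2.46 CPM with BW25113, and *zyg-1*, a kinase of centriole assembly, was at 51.4 ± 3.81 and 47.9 ± 7.19 CPM. The edgeR adjusted p was 0.952 for *dph-2* and 0.365 for *zyg-1*. On library size only, without TMM factors, their log2 fold changes were 0.45 and 0.56, where the median of all tested genes was 0.50.

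For *bli-1*, the estimated counts were 29, 17, 55, 24, 47 and 32 in replicates 1 to 6 of Δ*lpp*, and 3604, 3866, 2608, 2592, 3331 and 3054 in those of BW25113. For *bli-2*, they were 21, 20, 45, 24, 35 and 22 with Δ*lpp*, and 2438, 2140, 1656, 1630, 1973 and 1861 with BW25113. For *bli-6*, they ran from 73 through a median of 129.5 to 299 with Δ*lpp*, and from 8470 through 9025.8 to 11078.3 with BW25113. Every Δ*lpp* library was thus far below every BW25113 library, and the Δ*lpp* values of *bli-1* and *bli-2* rest on 17 to 55 fragments per library.

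In TPM, a level scaled for gene length so that genes can be compared, *bli-1* ran from 0.22 through a median of 0.39 to 0.61 with Δ*lpp*, and from 29.23 through 34.97 to 42.42 with BW25113. *bli-2* ran from 0.98 through 1.06 to 1.87 TPM, and from 70.32 through 78.98 to 101.83 TPM. *bli-6* ran from 3.57 through 6.11 to 12.4 TPM, and from 352.81 through 394.89 to 423.52 TPM. The order of the levels was *bli-6* above *bli-2* above *bli-1* in 12 of 12 libraries, and the ranges of neighbours in that order did not overlap within a diet.

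**Figure D2:**
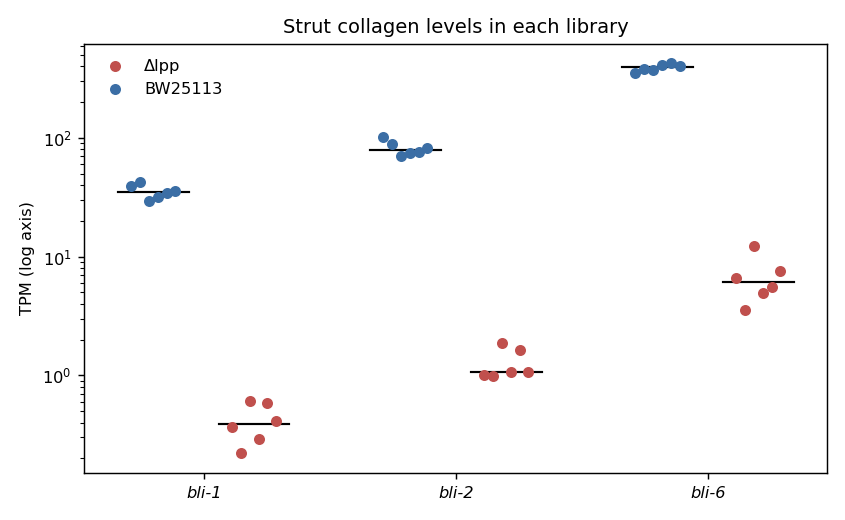
TPM (log axis) of *bli-1*, *bli-2* and *bli-6* in each of the 6 Δ*lpp* and 6 BW25113 libraries, each point a library in replicate order and each line the median of the diet. The highest Δ*lpp* value, 12.4 TPM for *bli-6*, lies below the lowest BW25113 value of any strut collagen, 29.23 TPM for *bli-1*.

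All 3 strut collagens passed edgeR's quasi-likelihood test, with an adjusted p (Benjamini-Hochberg over 15266 tested genes) under 0.05 and a fold change beyond 1 on the log2 scale. Of all tested genes, 27.7% passed in either direction and 15.6% passed as lower with Δ*lpp*. The log2 fold change of *bli-1* was −7.0 (SE 0.208, adjusted p = 8.47e-15), from 167.9 ± 22.3 CPM with BW25113 to 1.31 ± 0.577 CPM with Δ*lpp*. That of *bli-2* was −6.58 (SE 0.171, edgeR adjusted p = 3.00e-15), from 102.8 ± 9.85 to 1.07 ± 0.403 CPM. That of *bli-6* was −6.41 (SE 0.288, edgeR adjusted p = 2.69e-11), from 494.1 ± 64.1 to 5.80 ± 3.10 CPM. *bli-1*, *bli-2* and *bli-6* ranked 27, 52 and 67 from the lowest fold change among the tested genes.

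The groups were also apart by their extremes. The lowest BW25113 library was above the highest Δ*lpp* library 63.5 times for *bli-1*, 49.3 times for *bli-2* and 33.5 times for *bli-6* in CPM. In mean TPM, which carries no TMM scaling, the ratio of BW25113 to Δ*lpp* was 85.8 for *bli-1*, 65.1 for *bli-2* and 57.7 for *bli-6*.

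The scale between the diets depends on the normalization. TMM factors were 1.08 to 1.27 with Δ*lpp* and 0.794 to 0.988 with BW25113, and the tested genes had a median log2 fold change of 0.05 with them and 0.50 on library size only. Relative to that median, the fold changes were −7.05, −6.63 and −6.46 for *bli-1*, *bli-2* and *bli-6*. On library size only they were −6.56, −6.15 and −5.97. Over all tested genes the split of calls was 1849 higher and 2379 lower with TMM, and 3720 higher and 1747 lower on library size only. The strut collagens were called lower on both scales. Library totals were 21146884 to 23563531 with Δ*lpp* and 20254430 to 24442423 with BW25113, and overlapped.

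**Figure D3:**
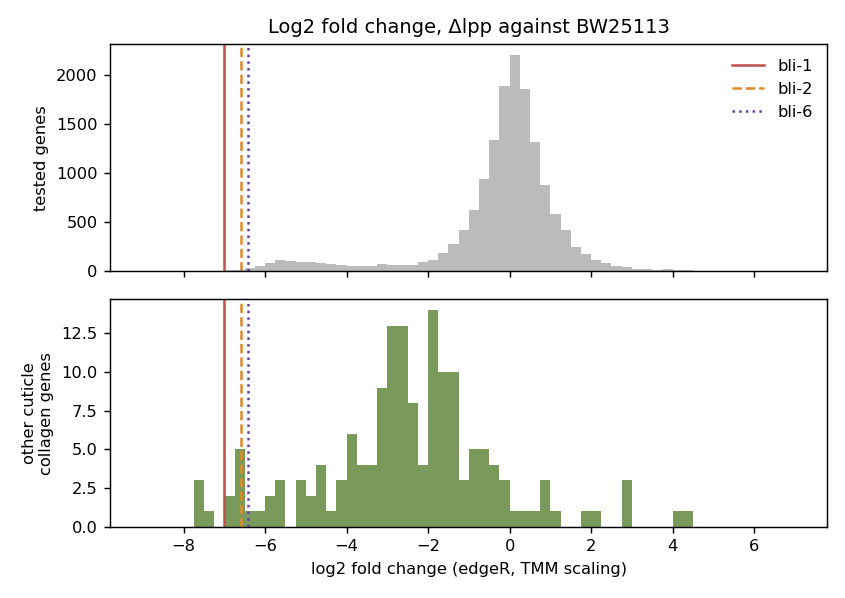
Number of tested genes (upper panel) and of the 160 other tested cuticle collagen genes (lower panel) by log2 fold change of Δ*lpp* against BW25113, with vertical lines at *bli-1*, *bli-2* and *bli-6*. The collagen genes are the set defined by name below. The lines, at −7.0, −6.58 and −6.41, stand at the low end of both distributions, whose medians are 0.05 and −2.51.

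The 3 strut collagens made up a smaller share of the TPM of a cuticle collagen set with Δ*lpp*. The set was chosen by name: genes named *col-*, plus the strut, furrow and body-shape collagens listed in this text. Collagen genes with other names are not in it. Over these 176 collagen genes, the summed TPM was 13857 to 18243 with Δ*lpp* and 46482 to 52273 with BW25113. *bli-1*, *bli-2* and *bli-6* together held 0.0344% to 0.0897% of it (median 0.0478%) with Δ*lpp*, and 0.980% to 1.06% (median 1.02%) with BW25113. The diets did not overlap in this share, in which *bli-6* was the largest part, with medians of 0.0380% and 0.781%.

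Most other collagens of this set were also lower with Δ*lpp*. Of the 160 others tested, 129 were called lower and 8 higher, against 15.6% and 12.1% of all tested genes. The median log2 fold change of the 160 was −2.51. Of these, 4 were lower than *bli-1*, namely *col-79* (−7.68), *col-88* (−7.64), *col-137* (−7.56) and *col-133* (−7.30). Below *bli-2* stood 10 of the set, and below *bli-6* 11. The 8 that were higher were *col-95*, *col-56*, *col-116*, *dpy-17*, *col-121*, *dpy-14*, *col-74* and *col-165*, with log2 fold changes from 1.23 to 4.36.

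The strut collagens were compared with one another within each library, where the scaling between libraries drops out. The log2 ratio of *bli-1* to *bli-2* (TPM plus 0.1) was −1.43 ± 0.215 with Δ*lpp* and −1.22 ± 0.0981 with BW25113, a difference of −0.21 (exact permutation test, two-sided, p = 0.0563, adjusted over the 3 pairs 0.169). The difference was −0.23 for *bli-1* to *bli-6* (exact permutation p = 0.238, adjusted 0.357) and −0.01 for *bli-2* to *bli-6* (p = 0.957 by the same exact test). With this constant all 3 ratios overlapped between the diets, and none passed.

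The ratios with *bli-1* depended on the constant added, which is not small beside *bli-1* with Δ*lpp*. On estimated counts plus 0.5, *bli-1* to *bli-2* differed by −0.46 (exact permutation p = 0.00216, the smallest possible with these libraries, adjusted 0.00649), and *bli-1* to *bli-6* by −0.54 (exact p = 0.0173, adjusted 0.026). With TPM plus 1, the same differences were 0.52 and 1.05, since that constant lies above *bli-1* in every Δ*lpp* library. As plain TPM ratios, the median of *bli-2* over *bli-1* was 2.93 (2.59 to 4.45) with Δ*lpp* and 2.34 (2.11 to 2.57) with BW25113, with no overlap between the diets. On that scale, with no constant added, *bli-1* to *bli-2* differed by −0.44 on log2 (exact permutation p = 0.00216, adjusted 0.00649), a setting chosen after seeing the data. The median of *bli-6* over *bli-2* was 5.65 (3.43 to 7.15) and 5.14 (3.46 to 5.6).

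The spread around the level of a diet was given by the coefficient of variation. In CPM it was 43.9% for *bli-1*, 37.6% for *bli-2* and 53.5% for *bli-6* with Δ*lpp*, against 13.3%, 9.58% and 13% with BW25113. The part of counting error, which is larger at the low Δ*lpp* counts, was not tested. With Δ*lpp*, replicate 2 was the lowest and replicate 3 the highest library for all 3 genes, and the highest was above the lowest 3.37, 2.34 and 4.27 times. With BW25113, replicate 3 was the lowest for *bli-1* and *bli-2*, and replicate 1 for *bli-6*. Δ*lpp* replicate 3 was also the highest Δ*lpp* library for 85 of the 160 other collagens of the set, against 22.5% of all tested genes. Replicate 2 was the lowest for 76 of them, for which no share of all tested genes was taken.

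**Figure D4:**
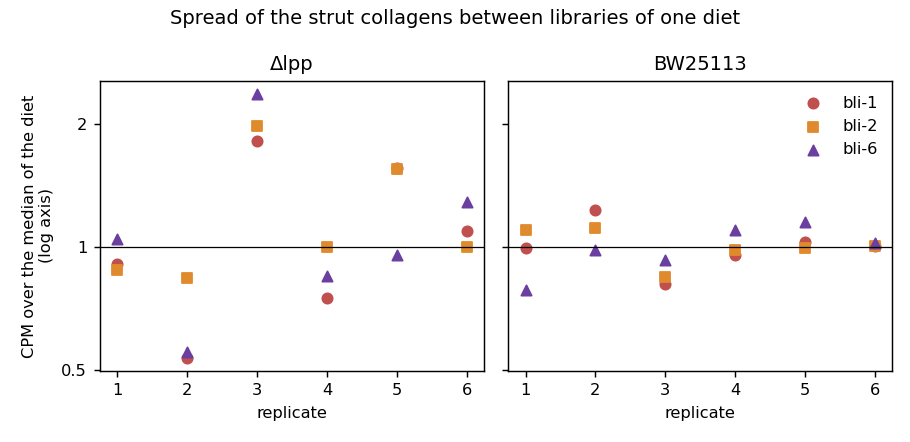
CPM of *bli-1*, *bli-2* and *bli-6* in each library over the median of its own diet (log axis), by replicate number. With Δ*lpp* the points spread from replicate 2, the lowest for each gene, to replicate 3, the highest, while with BW25113 they stay nearer to 1.

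Within the 6 Δ*lpp* libraries, *bli-1* and *bli-2* gave a Pearson r of 0.901 (exact permutation p = 0.0139, adjusted over 6 relations 0.0833) and a Spearman rho of 0.829 (exact p = 0.0583) on log2 CPM. Without replicates 2 and 3 the Pearson r was 0.846. Within BW25113 the same genes gave r = 0.865 (exact p = 0.0486, adjusted 0.0972) and rho = 0.771 (exact p = 0.103), and r = 0.0898 without the 2 farthest libraries, so that the relation rested on these. *bli-1* and *bli-6* gave r = 0.834 (exact p = 0.0375, adjusted 0.0972) with rho = 0.829 (exact p = 0.0583) in Δ*lpp*, and r = 0.242 without replicates 2 and 3. In BW25113 they gave r = 0.128 with rho = 0.314 (exact p = 0.831 and 0.564). *bli-2* and *bli-6* gave r = 0.741 with rho = 0.543 (exact p = 0.0833 and 0.297) in Δ*lpp*, and r = −0.226 with rho = −0.257 (exact p = 0.668 and 0.658) in BW25113. Without the 2 farthest libraries, the r of *bli-2* and *bli-6* was 0.632 in Δ*lpp* and −0.970 in BW25113, and that of *bli-1* and *bli-6* in BW25113 was 0.0714. None of the 6 relations passed after adjustment.

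The genes whose pattern was most like each strut collagen were ranked by the smaller of the 2 within-diet Pearson r, among 8090 genes averaging 10 CPM or more, as a description. For *bli-1* these were T27A10.6 (0.937), T06A4.3 (0.914), *lpr-6*, a lipocalin-related gene (0.903), and C09F9.2 (0.895). Their log2 fold changes were −1.49, −1.46, −0.93 and −0.83, smaller than that of *bli-1*. For *bli-2* they were *fkb-5*, a peptidyl-prolyl isomerase of the FKBP family (0.967, log2 fold change −1.68), *cyn-6*, a cyclophilin (0.875, −1.24), *bli-1* itself (0.865) and ZK1025.3 (0.863, −1.30). For *bli-6* they were *alh-8*, an aldehyde dehydrogenase (0.965, −0.32), *asp-1*, an aspartyl protease (0.958, −1.17), *phat-3* (0.957, 0.25) and *rol-1* (0.948, −6.82), whose mutants roll. *rol-1* was at 470 CPM with BW25113 and 4.16 CPM with Δ*lpp*, much like *bli-6*. Its name kept it out of the collagen set above, so the counts of that set do not include it. The average of 10 CPM was taken over all 12 libraries, so *bli-1* (1.31 CPM with Δ*lpp*) and *rol-1* passed through BW25113. Each likeness covers 6 libraries per diet, which share depth and composition, and taking the best of 8090 genes raises r by itself.

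Genes next to the strut collagens were read from the same fit. *col-80*, a collagen gene 672 bases before *bli-1* on the same strand, had a log2 fold change of −3.41 (SE 0.199, edgeR adjusted p = 9.46e-11), from 1408 CPM with BW25113 to 133 CPM with Δ*lpp*. C09G5.7, 2726 bases after *bli-1*, had one of −2.33 (SE 0.245, edgeR adjusted p = 1.43e-07). Its level was low on both diets, at 2.08 CPM (33 to 46 counts) with BW25113 and 0.409 CPM (7 to 17 counts) with Δ*lpp*. The 4 other neighbours, beside *bli-2* and *bli-6*, lay between −0.05 and 0.61, and 0 of them were called. Without TMM factors all 4 were above 0, as was the median of all tested genes (0.50). On that scale *shl-1*, beside *bli-6*, was called higher at 1.06 (edgeR adjusted p = 9.53e-05). 

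Other genes in which mutation blisters the cuticle, or which act with them, had fold changes nearer to 0. Over all tested genes, 15.6% were called lower and 12.1% higher. Of 6 blister-phenotype enzymes and partners, 1 was called lower and 0 higher, with a median log2 fold change of −0.61. The 1 was *bli-5*, which encodes a protein with a Kunitz protease inhibitor domain, at −2.79 (SE 0.172, edgeR adjusted p = 9.35e-11), from 8.05 ± 1.37 to 1.16 ± 0.236 CPM. Not called were *bli-3*, the dual oxidase that helps crosslink the cuticle (−0.50), *doxa-1*, its maturation factor (−0.71), *tsp-15*, a tetraspanin partner (0.14), *mlt-7*, a peroxidase (−0.87), and *bli-4*, a proprotein convertase (−0.18). The sign of *bli-3* and *bli-4* turned positive under other scalings, *bli-3* with 0.09 on log2(TPM + 1) and *bli-4* with 0.28 on library size only. The median of all tested genes was 0.51 and 0.50 on these scales, above both.

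Of 8 enzymes that modify, fold or cut collagen chains, 4 were called lower and 0 higher, against 15.6% and 12.1% of all tested genes. The median of the 8 was −0.92. Called were *dpy-18* and *phy-2*, the catalytic subunits of prolyl 4-hydroxylase (−1.77 and −1.63), *pdi-2*, its disulfide isomerase subunit (−1.30), and *dpy-11*, a thioredoxin-like enzyme (−1.08). Not called were *pdi-1* (−0.75), the lysyl hydroxylase *let-268* (−0.71), *bli-4* (−0.18) and *dpy-31*, a procollagen protease (−0.12). On library size only 2 of the 8 were called lower, on both TPM scales 1, and the signs of *let-268*, *bli-4* and *dpy-31* turned positive under at least 1 of these scalings. Every member of both lists lay nearer to 0 than the strut collagens did.

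Collagens of other parts of the cuticle were not all alike. The shares called over all tested genes were 15.6% lower and 12.1% higher. Of the 6 furrow collagens, which form the circumferential furrows, 2 were called lower and 0 higher, with a median of −0.76. These were *dpy-8* (−2.66) and *dpy-9* (−2.62), while *dpy-3* (−0.76), *dpy-7* (−0.75), *dpy-2* (−0.62) and *dpy-10* (−0.23) were not called, and *dpy-2* and *dpy-10* turned positive under other scalings. Of 11 other collagens that set body shape, 8 were called lower and 2 higher, with a median of −2.96, from −3.99 for *lon-3* to 3.0 for *dpy-14*. The other collagen that was higher was *dpy-17* (2.96), named after its values were seen. Both members of a short list of adult-stage collagens were called lower, *col-7* at −5.93 (SE 0.225) and *col-19* at −3.0 (SE 0.208). They do not stand for all collagens made in adults. *col-7* fell from 72.2 ± 13 to 1.18 ± 0.586 CPM, which is near the size of the change in *bli-6*.

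**Figure D5:**
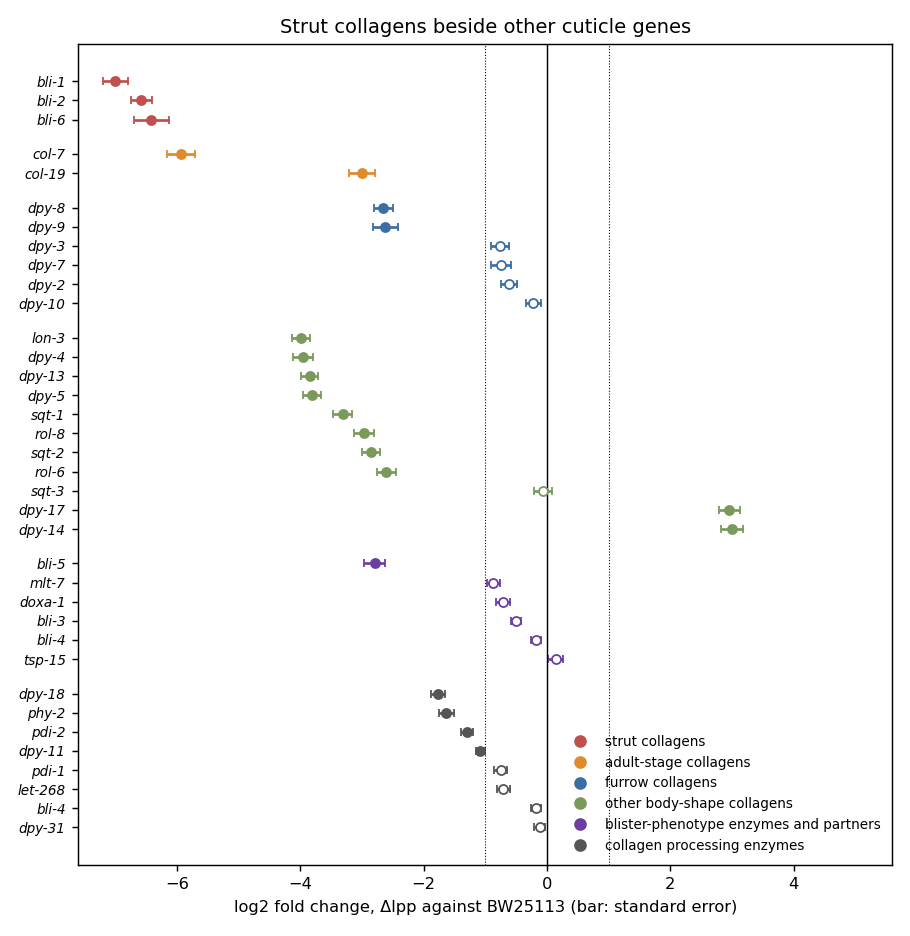
Log2 fold change of Δ*lpp* against BW25113 (points, with bars of 1 standard error) for the strut collagens and 5 lists of cuticle genes; filled points were called, open points were not, and dotted lines mark a log2 fold change of 1 either way. *bli-1*, *bli-2* and *bli-6* lie lowest, *col-7* at −5.93 comes next, and the members of the blister-phenotype and collagen processing lists lie between −2.79 and 0.14.

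Genes that time the molts and the larval-to-adult switch were read as a list. Of 13 such regulators, 3 were called lower and 2 higher, against 15.6% and 12.1% of all tested genes, with a median of −0.21. The number called higher was 4 on library size only, as on either TPM scale. *mab-10* (−2.08) and *lin-29* (−2.06), which act together in the epidermis at the larval-to-adult switch, and *lin-42* (−1.74), a period homologue that cycles with the molts, were lower. *hbl-1* (1.93) and *lin-14* (1.24), which act in earlier larval stages, were higher. *lin-29*, *lin-42* and *lin-14* were named after their values were seen. *lin-29* was at 6.18 ± 0.642 CPM with Δ*lpp* and 25.8 ± 4.44 CPM with BW25113, and *hbl-1* at 139 ± 20.05 and 36.5 ± 7.51 CPM. Of 13 molting and precuticle genes, 6 were called lower and 0 higher, with a median of −0.98, from −3.01 for *nas-36* to −0.39 for *lrp-1*, which turned positive under other scalings. The number called lower was 2 on log2(TPM + 1), 3 on log2(TPM + 0.1), 4 without TMM factors, and 9 without BW25113 replicate 3. Over all tested genes it was 1244, 1593, 1747 and 2482 in turn. The part of these genes in the level of the strut collagens was not tested.

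Whole worms hold many cell types, so that fewer cells of a type and less RNA per cell cannot be told apart. Over all tested genes, 15.6% were called lower and 12.1% higher with TMM scaling. The epidermis makes the strut collagens, and of its 8 markers 2 were called lower (*mua-3* at −2.52 and *mup-4* at −1.25) and 0 higher, with a median of −0.51. The summed level of these markers was 181.9 to 215.2 TPM with Δ*lpp* and 160.5 to 188.5 TPM with BW25113, which overlapped. Of these markers 1 was called lower and 1 higher without TMM factors, as on either TPM scale. The counts of the other lists follow, with TMM scaling, and stand beside the same 15.6% lower and 12.1% higher of all tested genes. Sperm genes were called lower in 5 of 5 tested (median −5.18, from *gsp-3* at −5.93 to *spe-26* at −2.63), with summed levels of 1.67 to 3.21 and 69.2 to 91.7 TPM. *spe-38* was not tested. Vitellogenins were lower in 3 of 6 and higher in 0 (median −0.96, from *vit-1* at −3.14 to *vit-2* at 0.82), with 7876 to 13482 and 4314 to 8498 TPM in sum. Those called lower had less mean CPM than the other members on both diets, and among them only *vit-1* did not overlap between the diets. Intestine markers were lower in 2 of 6 (median −0.95, from *vha-6* at −1.60 to *elt-7* at 0.00, whose sign varied between scalings), with 754 to 854 and 1185 to 1428 TPM. Body wall muscle markers were lower in 3 of 5 (median −1.20, from *unc-54* at −1.74 to *hlh-1* at 0.60), with 433 to 557 and 721 to 1028 TPM. Germ line markers were lower in 1 of 6 (median −0.14, from *glh-1* at −1.51 to *rme-2* at 0.25), with 1025 to 1458 and 674 to 1092 TPM. Pharynx markers gave 0 calls of 4 (median 0.25, from *myo-1* at −0.19, positive under other scalings, to *pha-4* at 0.82), with 216 to 315 and 117 to 178 TPM. Neuron markers gave 1 higher of 6 (median 0.66, from *snb-1* at 0.26 to *rab-3* at 1.01), with 448 to 523 and 221 to 253 TPM. That neuron call, *rab-3*, was lost with DESeq2, with RLE scaling, with no filter, and without Δ*lpp* replicate 1, Δ*lpp* replicate 3 or BW25113 replicate 3. On library size only, calls of lower were 1 for intestine and 1 for muscle, and calls of higher were 2 for vitellogenins, 1 for muscle, 1 for pharynx and 4 for neurons. Of all 15266 tested genes, 1747 were called lower and 3720 higher on library size only. On both TPM scales the calls of lower were 0 for intestine, 1 for muscle and 0 for germ line, and those of higher for neurons were 5. On log2(TPM + 1) 3 sperm genes were called lower, and with 10 counts in every library 1. That filter leaves genes under 10 counts in any library untested, so it did not cover all 5. Without TMM factors, the medians of the germ line list (0.32) and of the 13 regulators (0.25) turned positive. Both were below the median of all tested genes on that scale, 0.50. No marker of any list was at 0 in every library, and the part of these lists in the result was not tested.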

How the data were processed

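RNA from whole worms, with ribosomal RNA removed, was sequenced in 12 libraries, 6 per diet. The authors' pipeline used Seqtk to filter reads, HISAT2 for alignment, Stringtie for counting and RNAnorm for TPM. WBcel235 is the genome build in the submitters' processing notes, and versions, annotation and strand use are not given in the sources used here. The deposited estimated counts are not normalized, and 8.97% of the values are not whole, so they were rounded. The authors' TPM values sum to nearly equal totals.

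Genes passing filterByExpr of edgeR 4.0.16 (minimum count 10, minimum total 15) were tested with its quasi-likelihood test after TMM scaling, with no covariate. A gene was called at an adjusted p below 0.05 with a fold change beyond 1 on the log2 scale. Exact permutation tests covered all 924 arrangements of the libraries or 720 pairings of 6, two-sided, and cannot go below p = 0.00216 for the 6 against 6 libraries. Alternatives were DESeq2 1.42.0, other scalings, other filters, limma 3.58.1 on log2 TPM with 1 or 0.1 added, a block for the replicate number, and each library left out. Tools also included R 4.3.3, Python 3.11.15, scipy 1.17.1, numpy 2.4.6, pandas 2.3.3 and matplotlib 3.10.9. The fit was tested on simulated data. Libraries of a diet differed by more than sampling noise (chi-square per degree of freedom 4.49 to 70.8), so none was counted as a duplicate.

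The strut collagens and the gene lists were chosen with earlier results of these data known. Named genes were the strut collagens, the 4 genes most like each, every member of the blister, processing, furrow and adult-stage lists, and the highest and lowest member of other lists. Neighbouring and overlapping genes and collagens past the strut collagens were named after their values were seen. Protein and promoter sequences were not used here, so a planned promoter motif search was not run.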

Additional observations from a re-analysis of the deposited data

Results flagged for a closer look

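In groups of 6 libraries, 146 were checked for a highest or lowest library far from the rest, and 8 had one. None was a strut collagen. Chance gives about 1 in 20, which is near this share, and groups from the same libraries are not independent. With Δ*lpp*, *vit-1* was at 863 CPM in replicate 5 against 151 to 170 in the others, *dpy-9* at 14.5 CPM in replicate 2 against 7.43 to 9.78, and *zyg-1*, the gene around *bli-2*, at 58.7 CPM in replicate 5 against 47.9 to 51.4. With BW25113, replicate 3 stood apart for 4 genes, being the lowest for *lin-29* (17.005 CPM against 25.5 to 29.0) and ZK1025.3 (38.5 against 59.2 to 69.8) and the highest for *dpy-17* (89.0 against 49.7 to 61.0) and *dpy-14* (81.2 against 37.8 to 44.8). *nas-36* was at 16.6 CPM in BW25113 replicate 1 against 4.95 to 7.93. Without BW25113 replicate 3, in which *bli-1* and *bli-2* were also lowest, the log2 fold changes were −7.06, −6.63 and −6.44 for *bli-1*, *bli-2* and *bli-6*.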

How the results depend on the processing

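The log2 fold changes of *bli-1*, *bli-2* and *bli-6* kept their sign and their call under all 21 alternatives run for each. They ranged from −7.19 to −4.69, −6.77 to −5.21 and −6.74 to −5.74, and were smallest on log2(TPM + 1), which understates the change of low genes. Without one library at a time they ranged from −7.19 to −6.85, −6.77 to −6.49 and −6.74 to −6.27. Leaving out Δ*lpp* replicate 3 gave the lowest and replicate 2 the highest value for each. With 10 counts required in every library, 2210 genes were called in place of 4228, since genes under 10 counts in any library are then not tested; with other alternatives the count lay within 1.5 times, and without one library at 4280 to 4574. The direction of calls moved more, with 3720 higher on library size only, 4558 higher on log2(TPM + 0.1), 1244 lower on log2(TPM + 1), and 1178 lower and 1032 higher with 10 counts in every library.

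Equal replicate numbers did not pair the libraries: deviations of same-numbered libraries correlated at −0.17 to 0.33, and only replicate 1 matched its own number best. With the number as a replicate block the fold changes were −7.01, −6.59 and −6.51, the count of calls 4264, and no ratio passed before adjustment (sign-flip p by exact permutation 0.125, 0.281 and 0.969).

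The ratios depended on the constant. *bli-1* to *bli-2*, *bli-1* to *bli-6* and *bli-2* to *bli-6* differed by 0.52, 1.05 and 0.53 with TPM plus 1 (exact permutation p = 0.00216, 0.00216 and 0.0303), against −0.46 and −0.54 for the first and second on counts plus 0.5. With no constant, chosen after seeing the data, these were −0.44 and −0.54 (exact permutation p = 0.00216 and 0.0195). Without one library they ranged from −0.26 to −0.15, −0.35 to −0.14 and −0.13 to 0.078. The unadjusted exact permutation p of *bli-1* to *bli-2* went under 0.05 without Δ*lpp* replicate 1 (−0.25), Δ*lpp* replicate 6 (−0.26) or BW25113 replicate 1 (−0.24), and that of *bli-1* to *bli-6* without Δ*lpp* replicate 5 (−0.35), but adjusted over the 3 pairs they were 0.0974, 0.0649, 0.136 and 0.0909. *bli-2* to *bli-6* turned positive without Δ*lpp* replicates 1, 3 or 6 (0.05, 0.06, 0.08) or BW25113 replicates 1 or 2 (0.08, 0.02).

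Among 67 other named genes, 1307 values kept direction and call, 34 lost a call, 13 gained one and 48 changed sign, all of genes that were not called. On library size only, log2(TPM + 1) and log2(TPM + 0.1) in turn, *bli-4* was at 0.28, 0.42 and 0.42, *dpy-31* at 0.32, 0.46 and 0.49, *dpy-10* at 0.20, 0.37 and 0.38, *alh-8* at 0.14, 0.29 and 0.29, *dph-2* at 0.45, 0.41 and 0.44, *sqt-3* at 0.38, 0.53 and 0.53, *lrp-1* at 0.054, 0.17 and 0.21, and *myo-1* at 0.26, 0.43 and 0.44. On the TPM scales alone, *bli-3* was at 0.088 and 0.11, *let-268* at 0.33 and 0.35 and *dpy-2* at 0.0083 and 0.0093. With upper quartile scaling *dph-2* was at 0.087 and *sqt-3* at 0.024, and with 10 counts in every library *dph-2* was at 0.027. *elt-7* was at −0.028 with DESeq2, −0.029 with RLE scaling and −0.014 with no filter. Without one library, *dph-2* ranged from −0.045 to 0.052, *sqt-3* from −0.16 to 0.029 and *elt-7* from −0.045 to 0.086.

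Depth limits the Δ*lpp* values of *bli-1* and *bli-2*, at 17 to 55 fragments per library, and less those of *bli-6*, at 73 to 299. *bli-6* still had the largest coefficient of variation in CPM with Δ*lpp*, 53.5% against 43.9% for *bli-1* and 37.6% for *bli-2*.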
